A study of Mus musculus with 12 samples.

Results

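The genes described here are 34 markers of connective tissue: collagens, proteoglycans, elastic fibre proteins, matrix glycoproteins, receptors of fibroblasts and pericytes, and proteins of the smooth muscle contractile apparatus. They were chosen by name, as a fixed list of mouse symbols, and each of the 34 matched 1 of the 48795 Ensembl gene identifiers in the count table. The choice was made with earlier results of these data known. Comparisons of the list with all genes are therefore descriptive and not independent of the data. Of these, 31 held enough counts to be tested, and Pdgfra, Actg2 and Cnn1 did not.

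The prostate is a ductal gland in which a layer of secretory luminal cells and a layer of basal cells rest on a basement membrane. Around the ducts lie fibroblasts, which lay down fibrillar collagen, proteoglycans and elastic fibres, and a sheath of smooth muscle, which contracts through actin, myosin and the tropomyosins that run along actin filaments. Vessel walls add endothelial cells and pericytes, which make basement membrane collagen and several secreted glycoproteins. Epithelial cells also transcribe some of these genes, above all those for basement membrane, actin regulators and cytoskeletal tropomyosins.

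The RNA came from prostate cells of wild-type C57BL/6 mice aged 6 to 8 weeks. Luminal cells were sorted from the fraction negative for CD31, CD45 and Ter119, the surface proteins of endothelium, leukocytes and red cells. The sort separated cells with LY6D (LY6D+) from cells without it (LY6D-), and each of these by a high, intermediate (int) or low level of SCA1, another surface protein of the Ly6 family, which gave 6 populations with 2 libraries each. All groups share the strain, the genotype and the sort. CD31, CD45 and Ter119 do not mark fibroblasts, smooth muscle or pericytes, and SCA1 is also carried by some fibroblasts and endothelial cells. The labels call the 2 libraries biological replicates and do not state if each was 1 animal or a pool. The p-values therefore reflect how far these particular libraries scatter, which may be technical scatter.

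Libraries held 8436185 to 20022077 counts, and counts are tags from RNA 3' ends, so levels of different genes can be compared without a correction for length. Levels are given as CPM, the count of a gene in 1000000 counts after scaling between libraries. In pairs of values for a population, replicate 1 comes first. Summed over 9 luminal markers, the libraries held 1150 to 12600 CPM. Pbsn, for the secretory protein probasin, made up 99.5 to 10700 CPM of this, and the other 8 markers summed to 821 to 1970 CPM. The sum of 7 basal markers was above that of the luminal markers in LY6D+ SCA1high and SCA1int (3380 to 4890 CPM), and so was the sum of 10 endothelial markers in LY6D- SCA1high (3770 and 4340 CPM). Without Pbsn, the basal sum was above the luminal sum in LY6D+ SCA1low and LY6D- SCA1int too. Some libraries shared counts. Genes with at least 200 counts in LY6D- SCA1high replicate 1, and at most 5% of that number in each of the remaining libraries, stood at a median of 12.8% of it in LY6D- SCA1low replicate 2. The same measure was 13.6% from LY6D+ SCA1high replicate 2 to LY6D+ SCA1int replicate 2, and 7.77% from LY6D- SCA1low replicate 1 to LY6D- SCA1high replicate 2. Several of the genes described here sat close to the first of these shares. The count in LY6D- SCA1low replicate 2 was 11% of that in LY6D- SCA1high replicate 1 for Igfbp7, 12% for Sparcl1, 12.6% for Eln, 12.7% for Mgp and 13.7% for Vim. Results are therefore also given after subtraction of the shared counts and without the 2 libraries with the largest received shares, LY6D- SCA1low replicate 2 and LY6D+ SCA1int replicate 2, called the receiving libraries below. They are given as well without LY6D- SCA1low replicate 2 and LY6D+ SCA1high replicate 2, the second of which held the fewest counts and was the source of the 13.6% share. This pair is called the doubted libraries.

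The genes fell into a few abundant ones and many that were scarce or sporadic. Dcn, Gsn, Sparc and Tpm1 ranked 246, 294, 390 and 401 among all genes by mean CPM, and together made up 41.7% to 83.3% of the summed CPM of the 34 genes, which ran from 862 to 4820 CPM. These 4 and Col4a1 reached 10 CPM in all 12 libraries. Another 8 reached it in 9 to 11 libraries, namely Col1a2, Col3a1, Col4a2, Bgn, Fbln2, Sparcl1, Igfbp7 and Mgp. Eln, Fn1, Vim and Tpm2 did so in 6 to 8 libraries, and Col1a1, Fbln1, Acta2, Myh11 and Tagln in 3 to 5. The 9 genes Col5a1, Col6a1, Col6a2, Fbn1, Pdgfrb, Thy1, Myl9, Cnn1 and Des reached 10 CPM in 1 or 2 libraries, and Lum, Pdgfra and Actg2 in none. In a bulk sample, fewer cells of a type and less RNA per cell cannot be told apart.

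**Figure D1:**
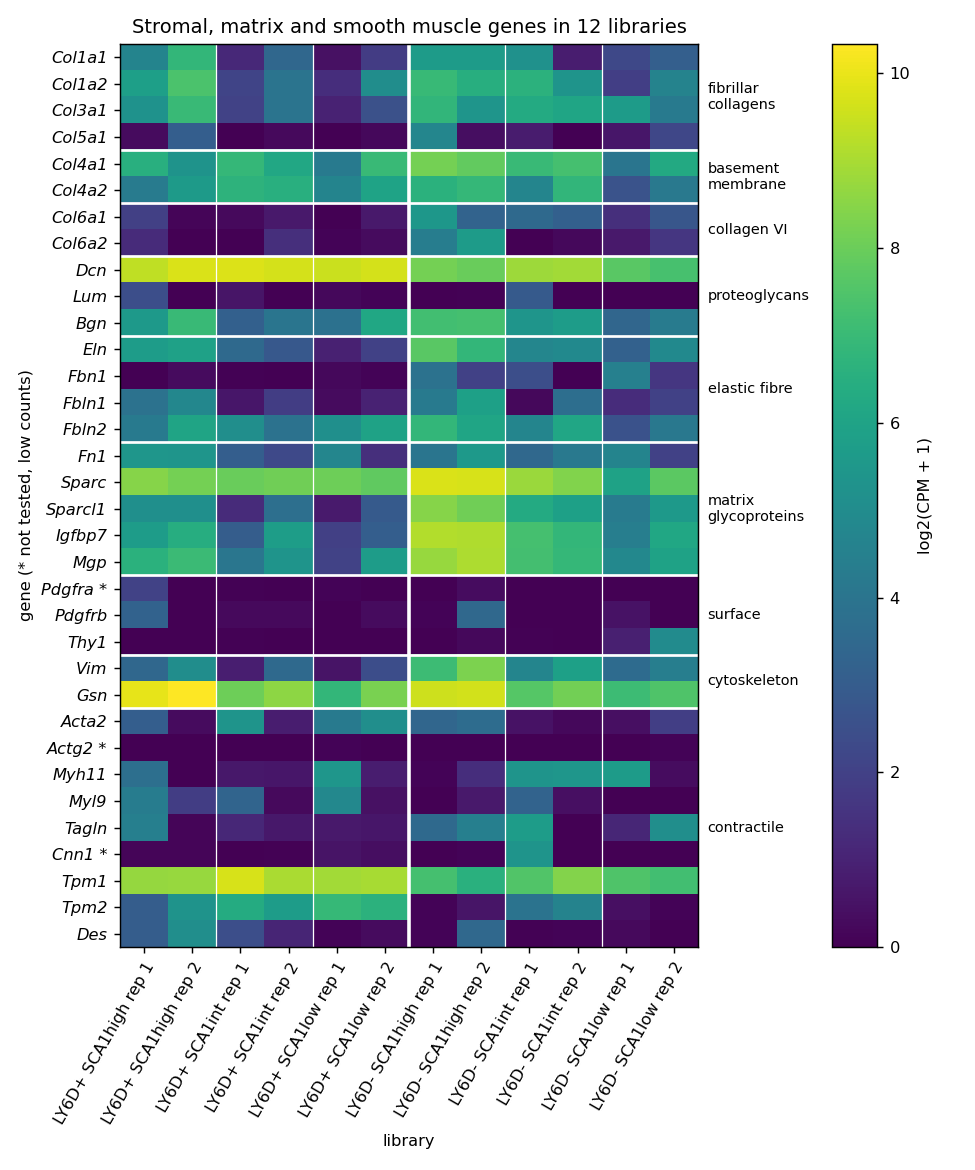
Level of the 34 genes (rows, grouped by role) in the 12 libraries (columns), coloured by log2(CPM + 1); an asterisk marks the 3 genes that were not tested. Dcn, Gsn, Sparc and Tpm1 are bright in every library, while Lum, Pdgfra and Actg2 stay below 10 CPM in all 12, and several contractile genes are bright in scattered single libraries.

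LY6D+ and LY6D- cells differed in opposite ways across these genes. Averaged over the SCA1 levels, 3 of the 31 tested genes were higher in LY6D+ cells: Dcn, which encodes the collagen-binding proteoglycan decorin, and the tropomyosin genes Tpm1 and Tpm2. Lower were Igfbp7 and Sparcl1, which encode secreted glycoproteins of vessel walls and matrix, and Vim, which encodes the intermediate filament vimentin. The calls are adjusted p-values below 0.05 in edgeR's quasi-likelihood test. Of all 15270 genes tested, 2.48% were called in this comparison, 1.27% higher and 1.21% lower in LY6D+ cells. The median log2 fold change of the 31 genes was -0.83, against 0.03 over all tested genes, and 11 of the 31 were positive.

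Dcn had the highest mean level of the 34 over the 12 libraries, while Gsn was the higher of the 2 in all 4 SCA1high libraries. In LY6D+ cells it stood at 641 and 857 CPM at SCA1high, 894 and 817 at SCA1int, and 726 and 807 at SCA1low. In LY6D- cells it stood at 286 and 248, 452 and 482, and 203 and 159 CPM at the same SCA1 levels. Every LY6D+ library lay above every LY6D- library, and among LY6D- cells the SCA1int libraries were the highest. The log2 fold change was 1.48 ± 0.22 (SE, edgeR adjusted p = 0.000141). It was 1.36 ± 0.27 without the doubted libraries and 1.43 ± 0.23 after subtraction, and 1.46 ± 0.25 without the receiving libraries. It kept its call under all 21 alternatives tried. Within SCA1low the fold was 2.08 ± 0.4 (edgeR adjusted p = 0.00583), and 0.472% of all genes were called there, 0.38% higher and 0.0917% lower. That call was lost with RLE scaling (1.64) and after subtraction (1.86 ± 0.4, edgeR adjusted p = 0.0581). The same contrast gave 1.49 ± 0.39 at SCA1high and 0.87 ± 0.38 at SCA1int, with no call. Dcn lies on chromosome 10 at 97479609 to 97518143 (GRCm38, plus strand).

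Bgn and Lum encode biglycan and lumican, proteoglycans of the same small leucine-rich family as decorin. Bgn ran from 8.09 to 156 CPM, highest at 147 and 156 CPM in LY6D- SCA1high, and its difference between LY6D states was -0.41 ± 0.63. Lum had no counts in 6 libraries, and its highest value was 6.64 CPM in LY6D- SCA1int replicate 1. The pattern of Dcn over the 6 populations was thus not shown by Bgn, and Lum was too scarce to show one or not. The LY6D estimate of Lum was 2.11 ± 1.64, with no call. Fmod, which encodes fibromodulin of the same family and is not among the 34, stood at 292 to 474 CPM in the LY6D+ libraries and 5.28 to 151 CPM in the LY6D- libraries, with a log2 fold change of 2.81 ± 0.41 (edgeR adjusted p = 8.57e-05).

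Tpm1 and Tpm2 encode tropomyosins, coiled-coil proteins that line actin filaments and that most cells make in muscle or cytoskeletal forms. Tpm1 stood at 417 and 422 CPM in LY6D+ SCA1high, 843 and 525 in LY6D+ SCA1int, and 482 and 507 in LY6D+ SCA1low. LY6D- cells held 154 and 93.8, 182 and 336, and 180 and 145 CPM. All LY6D+ libraries lay above all LY6D- libraries, the closest being LY6D- SCA1int replicate 2. The log2 fold change was 1.59 ± 0.28 (edgeR adjusted p = 0.00106), with 1.55 ± 0.32 without the doubted libraries and 1.52 ± 0.3 after subtraction. Dcn and Tpm1 were the 2 genes of the 31 whose LY6D+ range lay wholly above the LY6D- range, which held for 0.812% of all tested genes. None lay wholly below, against 0.57% of all genes.

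Tpm2 was scarcer and differed more. It stood at 7.28 and 39 CPM in LY6D+ SCA1high, 79.9 and 51.2 in LY6D+ SCA1int, and 120 and 97.9 in LY6D+ SCA1low. In LY6D- cells it stood at 0.0782 and 0.508 CPM at SCA1high, 14.2 and 23.6 at SCA1int, and 0.323 and 0.0866 at SCA1low. The groups overlapped in 1 place, where LY6D+ SCA1high replicate 1 lay below both LY6D- SCA1int libraries. The averaged log2 fold change was 5.68 ± 1.02 (edgeR adjusted p = 0.00124), with 4.91 ± 1.22 without the doubted libraries and 6.55 ± 1.26 after subtraction. At SCA1low the LY6D- libraries held 4 counts in all against 2820 in the LY6D+ libraries. The scaled ratio of these counts was 567, with an exact 95% interval of 221 to 2080 that covers counting error alone. The fitted log2 fold change there was 9.02 ± 2.05 (edgeR adjusted p = 0.034), a size that depends on the prior count. It lost its call in 8 of 21 alternatives, among them limma, the fit without the receiving libraries (8.37 ± 2.94), subtraction (8.66 ± 2.38), RLE scaling and the fit without the doubted libraries (8.37 ± 2.71). Leaving out LY6D+ SCA1low replicate 1 (8.77), LY6D- SCA1low replicate 1 (9.95) or LY6D- SCA1low replicate 2 (8.37) alone also ended it. At SCA1high the count ratio was 45, with an interval of 26.1 to 85.1, and at SCA1int 3.7, with 3.37 to 4.06. In the main fit no member was called at either level, although Igfbp7 was called at SCA1high in 8 of 21 alternatives (-3.2 to -3.04). Without the receiving libraries Dcn (1.48 ± 0.37), Tpm1 (1.76 ± 0.46) and Igfbp7 (-3.04 ± 0.74) were called at SCA1high, and Igfbp7 at SCA1int (-4.17 ± 1.05). At SCA1high 9 of the 31 and 1790 of all 15270 genes had an unadjusted p below 0.05 in edgeR. DESeq2 called 4 of the 31 there, limma called 0, and edgeR called 0.262% of all genes (0.138% higher, 0.124% lower). At SCA1int 9 of the 31 and 942 of all 15270 genes had an unadjusted p below 0.05 in edgeR. DESeq2 called 1 of the 31 there, limma called 0, and edgeR called 0.203% of all genes (0.0196% higher, 0.183% lower).

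**Figure D2:**
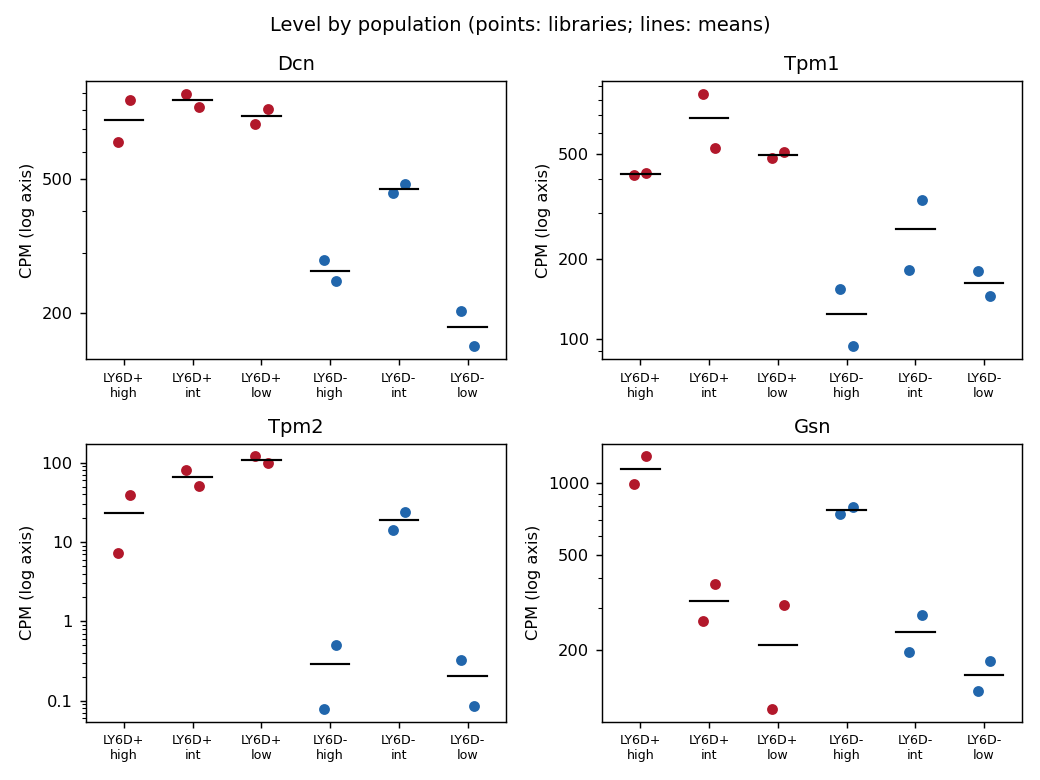
CPM (log axis) of Dcn, Tpm1, Tpm2 and Gsn in the 6 populations, LY6D+ in red and LY6D- in blue; points are libraries and lines are the means of 2. For Dcn and Tpm1 all red points lie above all blue points, for Tpm2 the LY6D- SCA1high and SCA1low points lie below 1 CPM, and Gsn is high in both SCA1high populations.

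The other contractile genes, which mark differentiated smooth muscle, were sporadic. Of the 5 of them that were tested, 0 were called in edgeR in either averaged comparison. For LY6D 2, Myl9 and Tagln, had an unadjusted p below 0.05, and along SCA1 1, Des. Over all 15270 genes, 3116 had such a p for LY6D and 1843 along SCA1. DESeq2 called Myl9 higher (4.7 ± 1.61) and Tagln lower (-3.56 ± 1.27) in LY6D+ cells, and Des higher in SCA1high cells (6.07 ± 1.74). The uncalled edgeR estimates were 5.25 ± 2.08, -3.43 ± 1.62 and 6.25 ± 2.49 in the same order. In limma none of the 5 was called. Acta2, which encodes smooth muscle actin, ran from 0.172 to 40.3 CPM. It was highest in LY6D+ SCA1int replicate 1 (40.3 CPM) while the second library of that population held 0.794 CPM. The LY6D+ SCA1low libraries both held it, at 17.5 and 33.2 CPM, against 0.323 and 2.77 in LY6D- SCA1low. Myh11, which encodes smooth muscle myosin heavy chain, stood at 39.9 and 42.7 CPM in LY6D- SCA1int, at 41.7 CPM in LY6D+ SCA1low replicate 1, at 49.6 CPM in LY6D- SCA1low replicate 1 and at 12.6 CPM in LY6D+ SCA1high replicate 1. It lay at or below 1.52 CPM in the other 7 libraries, and in all populations but LY6D- SCA1int its 2 libraries differed by more than 10 CPM or held next to none. Cnn1, for calponin, reached 40.1 CPM in LY6D- SCA1int replicate 1 and at most 0.46 CPM elsewhere. Tagln, for transgelin, ran from 0 to 51.3 CPM and was highest in that same library. It stood at 10.6 and 21.2 CPM in LY6D- SCA1high. Its exons share 108 bases with Pcsk7 on the opposite strand. Myl9 reached 27.3 CPM, Des 33.6 CPM, and Actg2 had 2 counts in all 12 libraries together. Values of Tpm1 and Tpm2 can be set beside these in single libraries. In LY6D+ SCA1int replicate 2, Tpm1 stood at 525 CPM and Tpm2 at 51.2, with Des at 1.11, Acta2 at 0.794, Tagln at 0.582, Myh11 at 0.529, Myl9 at 0.212, Cnn1 at 0.0529 and Actg2 at 0. In LY6D+ SCA1low replicate 2, Acta2 stood at 33.2 CPM beside 507 CPM of Tpm1. Tpm1 was highest in LY6D+ SCA1int replicate 1 (843 CPM), the library with the most Acta2 (40.3 CPM). Myl9 stood at 9.12 CPM there, Des at 4.64, Tagln at 1.19, Myh11 at 0.593 and Cnn1 at 0. Tpm2 was highest in LY6D+ SCA1low replicate 1 (120 CPM). Myh11 stood at 41.7 CPM there, Myl9 at 27.3, Acta2 at 17.5, Tagln at 0.613, Cnn1 at 0.46 and Des at 0.0766. The part of smooth muscle RNA in the levels of Tpm1 and Tpm2 was not tested.

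Of 20 tested genes on a list of further smooth muscle and actin genes, 3 were higher in LY6D+ cells and 0 were lower in edgeR. An unadjusted p below 0.05 was held by 8 of the 20, and by 3116 of all 15270 genes. DESeq2 gave 5 higher and 2 lower, and limma 3 and 0. Over all genes DESeq2 called 2208 for LY6D, against 379 in edgeR. The 3 were Flna, which encodes the actin cross-linker filamin A (log2 fold change 2.05 ± 0.41, edgeR adjusted p = 0.00486), Srf, the serum response factor gene (1.32 ± 0.28, adjusted p = 0.00667), and Csrp1, for a LIM protein of the actin skeleton (1.14 ± 0.25, adjusted p = 0.00862). Flna stood at 225 to 499 CPM in the LY6D+ libraries and 7.31 to 211 CPM in the LY6D- libraries. Between the LY6D states, basal epithelial markers moved with these genes. All 7 basal markers, among them Krt5, Krt14 and Krt15, were higher in LY6D+ cells. Their summed level was 2440 to 4890 CPM in the LY6D+ libraries and 233 to 2070 CPM in the LY6D- libraries. In LY6D- cells the sum was highest at SCA1int (1820 and 2070 CPM), the level at which Dcn, Tpm1 and Tpm2 were highest too. In LY6D+ cells the genes did not follow the sum, which was 4480 and 4670 CPM at SCA1high and 2440 and 3370 at SCA1low. Tpm2 ran the other way, from 7.28 and 39 CPM at SCA1high to 120 and 97.9 at SCA1low. Tpm1 went from 417 and 422 to 482 and 507 CPM, and Dcn from 641 and 857 to 726 and 807. The part of basal marker content in the results for Dcn, Tpm1 and Tpm2 was not tested.

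The genes lower in LY6D+ cells had a common peak in LY6D- SCA1high. Igfbp7, which encodes an insulin-like growth factor binding protein of the vascular basement membrane, stood at 569 and 552 CPM there. It stood at 153 and 114 CPM in LY6D- SCA1int and at 20.5 and 69.6 CPM in LY6D- SCA1low. In LY6D+ cells it stood at 51.1 and 85.7 CPM at SCA1high, 7.34 and 52.9 at SCA1int, and 2.91 and 7.39 at SCA1low. Within each SCA1 level both LY6D- libraries lay above both LY6D+ libraries, and the LY6D- SCA1low libraries overlapped with LY6D+ SCA1high. After subtraction this order did not hold at SCA1low, where LY6D- SCA1low replicate 2 held 0 CPM against 0.689 and 2.33 in LY6D+ SCA1low. The LY6D log2 fold change was -2.77 ± 0.5 (edgeR adjusted p = 0.00127), and -2.52 ± 0.51 without the doubted libraries. After subtraction it was -2.67 ± 0.8 and no longer called (edgeR adjusted p = 0.122), its 1 loss in 21 alternatives. Without the receiving libraries it was -3.06 ± 0.51. Igfbp7 and Polr2b, on opposite strands, share 85 bases of annotated exon at their 3' ends, where these tags fall, and the strand setting of the counting is not given in the sources used here. Polr2b, with 12519 counts in all, did not have an equal count in any library.

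Sparcl1 encodes an anti-adhesive matrix glycoprotein related to Sparc. It stood at 351 and 271 CPM in LY6D- SCA1high, 77.9 and 58 in LY6D- SCA1int, and 18.7 and 46.7 in LY6D- SCA1low. In LY6D+ cells it stood at 34.6 and 34, 1.4 and 12.5, and 0.689 and 6.69 CPM. Its population means had the order of those of Igfbp7, and after subtraction LY6D- SCA1low replicate 2 held 0 CPM, against 0 and 4.2 in LY6D+ SCA1low. The LY6D log2 fold change was -3.2 ± 0.68 (edgeR adjusted p = 0.00726), with -2.92 ± 0.71 without the doubted libraries and -5.32 ± 1.25 after subtraction. Without the receiving libraries it was -3.69 ± 0.76, and the call held in all 21 alternatives.

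Vim stood at 136 and 311 CPM in LY6D- SCA1high, 24.9 and 57.1 in LY6D- SCA1int, and 11.3 and 20.7 in LY6D- SCA1low. The LY6D+ values were 9.89 and 32.2, 0.809 and 10.5, and 0.46 and 4.43 CPM. LY6D- libraries were again the higher ones within each SCA1 level, with a wide gap between the libraries of each pair. After subtraction LY6D- SCA1low replicate 2 held 1.39 CPM, below 2.02 in LY6D+ SCA1low replicate 2. The LY6D log2 fold change was -2.99 ± 0.8 (edgeR adjusted p = 0.0425) and was the least stable of the 6. The call was lost in 8 of 21 alternatives: RLE scaling, limma, subtraction (-4.7 ± 1.15, edgeR adjusted p = 0.0537), and leaving out any one of LY6D+ SCA1high replicate 1 (-2.78), LY6D+ SCA1int replicate 1 (-2.68), LY6D+ SCA1low replicate 1 (-2.77), LY6D- SCA1high replicate 2 (-2.77) or LY6D- SCA1int replicate 2 (-2.78). It held at -3.17 ± 0.88 without the doubted and at -3.74 ± 0.94 without the receiving libraries.

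The upstream sequence of Igfbp7 is shown because the gene was called along both LY6D and SCA1. It is the 250 bases before the start site in the RefSeq window on GRCm38.p6, at chr5:77408046-77408295 on the minus strand, in the direction of transcription and outside the annotated exons. Capitals mark matches on either strand to 5 motifs: the TATA box (TATAAA), the GC box (GGGCGG), the MCAT element (CATTCC), the AP-1 site (TGANTCA) and the CArG box, the binding motif of serum response factor.
Igfbp7: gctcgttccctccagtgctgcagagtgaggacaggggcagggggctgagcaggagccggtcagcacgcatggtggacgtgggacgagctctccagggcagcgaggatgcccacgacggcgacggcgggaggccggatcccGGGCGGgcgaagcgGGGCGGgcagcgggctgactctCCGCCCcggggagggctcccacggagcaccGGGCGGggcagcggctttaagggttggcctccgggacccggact
All 4 capital runs are GC boxes, with first bases at positions -110, -96, -74 and -44 from the start site, the one at -74 read on the opposite strand. Windows of 300 bases were at hand for 22 of the 34 genes. Of these 22, 15 held a GC box, 4 an MCAT element, 2 a TATA box, 1 an AP-1 site and 1, Myl9, a CArG box. Among all 32851 RefSeq windows, the shares were 35.7%, 14.7%, 13.6%, 7.81% and 1.63% in the same order. These shares count windows, while the 22 genes had 26 windows and a gene counted if any of its windows held the motif. The Vim window held a TATA box at -32, the Tpm1 window a GC box at -127 and an MCAT element at -56, and the Tpm2 window GC boxes at -68, -42 and, read on the opposite strand, 43. A match is a string of letters and shows no binding.

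Endothelial markers moved with Igfbp7, Sparcl1 and Vim. The summed level of 10 endothelial markers was 3770 and 4340 CPM in LY6D- SCA1high, 1210 and 1530 CPM in LY6D- SCA1int, 303 and 734 CPM in LY6D- SCA1low, and 17.9 to 475 CPM in the LY6D+ libraries. Of the 10, 8 were lower in LY6D+ cells, led by Kdr, which encodes the main receptor for vascular endothelial growth factor (-3.63 ± 0.54, edgeR adjusted p = 0.000108). Pecam1, which encodes CD31, the protein used to remove endothelium, stood at 573 and 401 CPM in LY6D- SCA1high and at 2.43 to 49 CPM in the LY6D+ libraries. None of the 10 markers was at 0 in LY6D- SCA1high. Of 8 pericyte markers, Mcam, for an adhesion protein that endothelium carries too, held 193 and 184 CPM in LY6D- SCA1high and the other 7 together 49 and 5.93 CPM. In LY6D+ SCA1high these 7 summed to 34.5 and 40.4 CPM. Of 7 leukocyte markers, Cd52 reached 204 CPM in LY6D+ SCA1low replicate 1, the other 6 summed to at most 47 CPM in any library, and Ptprc, Tyrobp and Coro1a were at or below 0.257 CPM in all. The part of endothelial or pericyte RNA in the levels of Igfbp7, Sparcl1, Vim and the genes that follow was not tested.

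Along SCA1 the called genes among the 34 were all higher in SCA1high cells. Averaged over LY6D, 6 of the 31 were higher in SCA1high than in SCA1low cells: Gsn, Igfbp7, Mgp, Sparc, Eln and Sparcl1. None of the 31 was lower in edgeR, where none with an unadjusted p below 0.05 was lower, nor in DESeq2 (13 higher) or limma (3 higher). DESeq2 also called more of all genes along SCA1, 1303 against 185 in edgeR. Over all genes 1.21% were called, 0.432% higher and 0.779% lower in SCA1high. The median log2 fold change of the 31 was 2.49, against 0.15 over all tested genes, and 26 were positive. The ranges of all 4 SCA1high and all 4 SCA1low libraries did not overlap for 7 of the 31, each higher in SCA1high: Col1a1, Col1a2, Eln, Fbln1, Sparc, Mgp and Gsn. This held for 2.36% of all genes, and 2.65% lay wholly lower. As the list was chosen with earlier results known, these comparisons with all genes are descriptive. Marker lists moved along SCA1 too, and not all in this direction. Of the endothelial markers 5 of 10 and of the basal markers 3 of 7 were higher in SCA1high cells, and 0 were lower. Of 9 luminal markers 1 was called, Pbsn, which was lower in SCA1high cells (-4.88 ± 0.23, edgeR adjusted p = 6.05e-15). Of 3 tested leukocyte markers 1 was called, Cd52, also lower (-5.88 ± 1.34, edgeR adjusted p = 0.017). Of 6 tested pericyte markers 0 were called, with Mcam at -3.11 ± 1.01 and 5 estimates positive. The part of any of these lists in the results that follow was not tested.

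**Figure D3:**
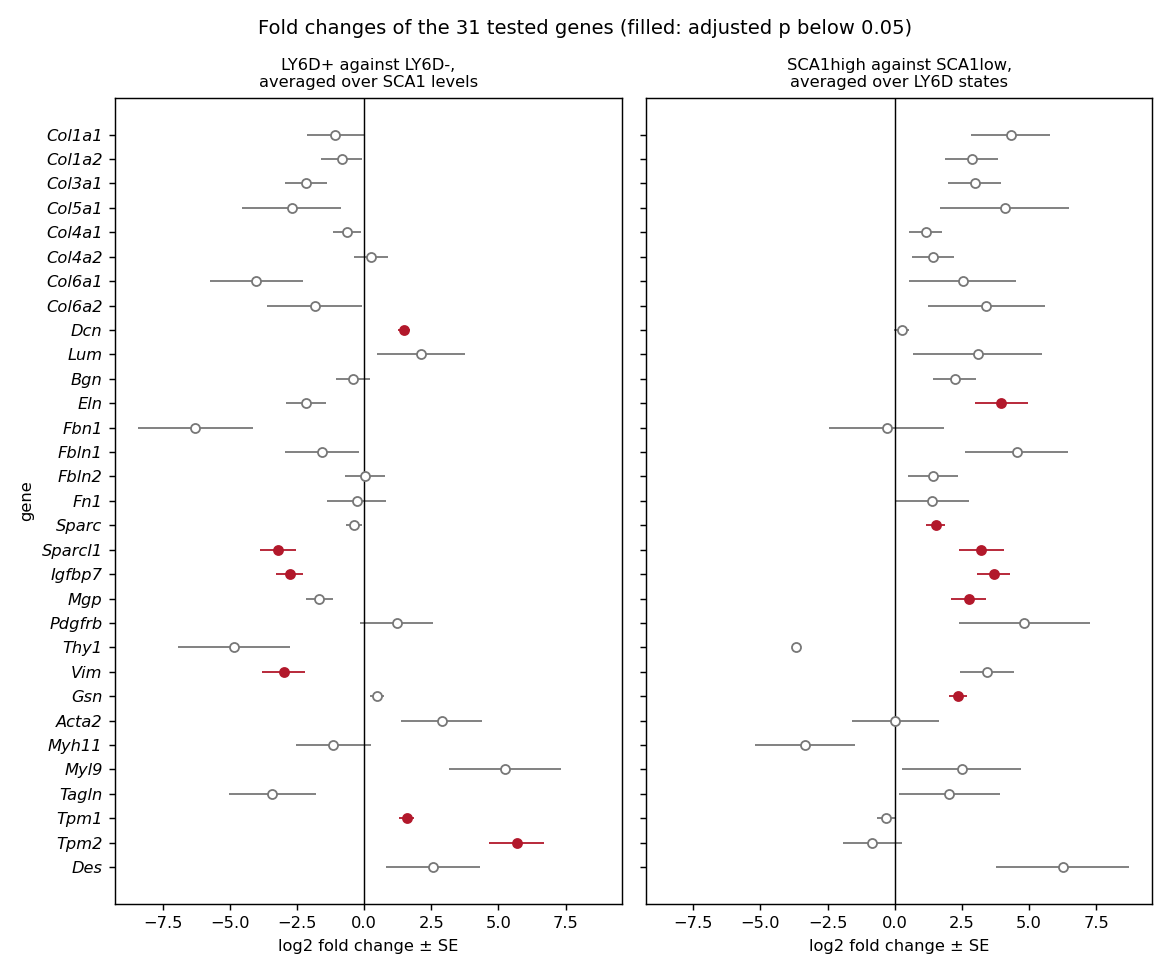
Log2 fold change ± SE (edgeR) of the 31 tested genes for LY6D+ against LY6D- (left) and SCA1high against SCA1low (right); filled red points have an adjusted p below 0.05. In the left panel 3 filled points lie above 0 and 3 below, and in the right panel all 6 lie above 0. The Thy1 point on the right has no bar because its SE (9108.26) was too large to draw.

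Gsn had the clearest difference along SCA1. It encodes gelsolin, which severs and caps actin filaments and which epithelial and connective tissue cells both make. It stood at 985 and 1290 CPM in LY6D+ SCA1high and 741 and 793 in LY6D- SCA1high. At SCA1int it stood at 264 and 377 CPM in LY6D+ and 196 and 280 in LY6D- cells, and at SCA1low at 113 and 307 and at 134 and 179 CPM. The 4 SCA1high libraries were the 4 highest of the 12, while SCA1int and SCA1low overlapped. The log2 fold change was 2.37 ± 0.34 (edgeR adjusted p = 5.46e-05), with 2.39 ± 0.41 without the doubted libraries and 2.58 ± 0.38 after subtraction, and it was called in all 21 alternatives. It was 2.44 ± 0.48 in LY6D+ cells (edgeR adjusted p = 0.00912) and 2.29 ± 0.48 in LY6D- cells (edgeR adjusted p = 0.0116). Of all genes, 0.327% were called in LY6D+ cells (0.0393% higher, 0.288% lower) and 0.635% in LY6D- cells (0.242% higher, 0.393% lower). The interaction was 0.15 ± 0.64. Each of these 2 calls was lost in 4 alternatives. In LY6D+ cells these included subtraction (2.49 ± 0.54, edgeR adjusted p = 0.0884) and leaving out LY6D+ SCA1high replicate 2 (2) or LY6D+ SCA1low replicate 1 (1.82). In LY6D- cells they included RLE scaling (1.85), DESeq2 (1.85) and leaving out LY6D- SCA1low replicate 1 (1.95). Both LY6D+ SCA1high libraries lay above both LY6D- SCA1high libraries. Its LY6D difference was 0.47 ± 0.26 with no call.

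Gsn has 3 start sites in RefSeq, on the plus strand of chromosome 2, at 35256359, 35266744 and 35282380. Tags from the 3' end cannot tell which was used, so the 250 bases before each are given, at chr2:35256109-35256358, chr2:35266494-35266743 and chr2:35282130-35282379, in that order and with capitals as for Igfbp7.
Gsn first start: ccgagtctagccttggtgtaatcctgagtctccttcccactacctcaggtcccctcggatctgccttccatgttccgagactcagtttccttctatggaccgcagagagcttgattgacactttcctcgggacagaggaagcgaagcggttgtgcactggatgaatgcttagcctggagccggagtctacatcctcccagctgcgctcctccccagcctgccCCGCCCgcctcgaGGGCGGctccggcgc
Gsn second start: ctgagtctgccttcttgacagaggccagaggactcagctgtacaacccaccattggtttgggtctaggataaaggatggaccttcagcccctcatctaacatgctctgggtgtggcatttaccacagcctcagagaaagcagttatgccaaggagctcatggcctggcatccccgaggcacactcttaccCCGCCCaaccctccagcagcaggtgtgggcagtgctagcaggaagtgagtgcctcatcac
Gsn last start: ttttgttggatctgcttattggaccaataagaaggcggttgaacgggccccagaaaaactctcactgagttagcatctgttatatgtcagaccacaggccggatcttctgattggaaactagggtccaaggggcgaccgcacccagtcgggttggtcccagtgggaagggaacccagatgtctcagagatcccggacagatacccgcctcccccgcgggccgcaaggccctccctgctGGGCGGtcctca
The first holds GC boxes at -28 and -15, the second at -60 and the last at -12. None of the other motifs lies in the 3 stretches.

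Sparc, which encodes osteonectin, a collagen-binding glycoprotein, stood at 860 and 829 CPM in LY6D- SCA1high, 440 and 331 in LY6D- SCA1int, and 61.7 and 209 in LY6D- SCA1low. In LY6D+ cells it was level, at 355 and 289, 250 and 270, and 262 and 224 CPM. The 2 LY6D- SCA1low libraries were the lowest of all 12 and the 2 LY6D- SCA1high libraries the highest. In LY6D- cells the log2 fold change between SCA1high and SCA1low was 2.64 ± 0.53 (edgeR adjusted p = 0.00773). In LY6D+ cells it was 0.4 ± 0.5. The difference between these 2 values was -2.24 ± 0.71, with an unadjusted p of 0.00394 and an adjusted p of 0.65 in edgeR, so it was not called. Leaving out LY6D- SCA1low replicate 2 made it a call (-3.57 ± 0.79, edgeR adjusted p = 0.0102), as did leaving out both receiving libraries (-3.39 ± 0.73, edgeR adjusted p = 0.00304), and none of the other 19 alternatives called it. Without LY6D- SCA1low replicate 1 the fold in LY6D- cells was 1.86 and not called, and without the doubted libraries it was 3.8 ± 0.69. Averaged over LY6D the fold was 1.52 ± 0.36 (edgeR adjusted p = 0.0234). This call was lost with RLE scaling, with limma, and without LY6D+ SCA1low replicate 2 (1.32), LY6D- SCA1high replicate 2 (1.4) or LY6D- SCA1low replicate 1 (1.12), and it held after subtraction (1.89 ± 0.35).

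Igfbp7, whose levels are given above, was higher in SCA1high cells by 3.68 ± 0.63 on the log2 scale (edgeR adjusted p = 0.000844). The values were 4.05 ± 0.72 without the doubted libraries and 5.95 ± 1.13 after subtraction, and the call held in all 21 alternatives. Its fold was nearly equal in both LY6D states, at 3.73 ± 0.9 in LY6D+ (edgeR adjusted p = 0.0764) and 3.64 ± 0.89 in LY6D- cells (edgeR adjusted p = 0.0532). Neither was called in the main edgeR fit, but 13 of 21 alternatives called the first (3.32 to 4.14) and 15 the second (3.23 to 4.79), DESeq2 among them in both. Sparcl1 was higher by 3.23 ± 0.83 (edgeR adjusted p = 0.0468). It lost that call in 7 alternatives: RLE scaling, limma, subtraction (4.61 ± 1.44), and leaving out LY6D+ SCA1low replicate 1 (2.76), LY6D- SCA1high replicate 1 (3.07), LY6D- SCA1high replicate 2 (3.24) or LY6D- SCA1low replicate 1 (2.87).

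Mgp encodes matrix Gla protein, an inhibitor of calcification in vessel walls and cartilage. It stood at 95.9 and 132 CPM in LY6D+ SCA1high, 15.5 and 40.1 in LY6D+ SCA1int, and 3.06 and 52 in LY6D+ SCA1low. LY6D- cells held 431 and 527, 149 and 117, and 27.5 and 60.8 CPM. SCA1high libraries all lay above SCA1low libraries, and the 2 LY6D+ SCA1low libraries differed widely. The log2 fold change was 2.75 ± 0.64 (edgeR adjusted p = 0.0218) and 2.98 ± 0.68 without the doubted libraries. The call was lost with RLE scaling, limma and subtraction (3.84 ± 1.2, edgeR adjusted p = 0.214), and without LY6D+ SCA1low replicate 1 (2.26). Its LY6D difference of -1.67 ± 0.51 was not called (edgeR adjusted p = 0.0724) but was in 9 of 21 alternatives, at -1.52 to -2.71.

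Elastic fibres were represented by Eln, which encodes elastin, their core, by Fbn1 for the microfibril protein fibrillin 1, and by Fbln1 and Fbln2 for fibulins. Eln stood at 208 and 115 CPM in LY6D- SCA1high, 25.5 and 29.1 in LY6D- SCA1int, and 8.28 and 29.1 in LY6D- SCA1low. LY6D+ cells held 51.5 and 58.7, 10.5 and 6.19, and 0.919 and 2.96 CPM. It was highest at SCA1high in both LY6D states. The log2 fold change along SCA1 was 3.97 ± 0.98 (edgeR adjusted p = 0.0365). It did not survive 11 of the 21 alternatives. These were RLE scaling, no filter on low counts, subtraction (5.64 ± 1.88), removal of both doubted libraries (4.52 ± 1.35) and removal of any single SCA1high or SCA1low library other than LY6D+ SCA1high replicate 1 (3.54 to 4.46). Fbln1 was at 0.154 to 57.9 CPM, Fbln2 at 5.05 to 114 CPM and Fbn1 at 0 to 21.9 CPM. In the averaged comparisons edgeR and limma called none of these 3, and DESeq2 called Fbn1 lower in LY6D+ cells and Fbln1 higher in SCA1high cells. Fbn1 had the largest negative LY6D estimate of the 31, at -6.28 ± 2.13 (edgeR adjusted p = 0.0997). Fibronectin, Fn1, a cell-binding matrix glycoprotein, ran from 1.63 to 45.7 CPM and was not called.

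**Figure D4:**
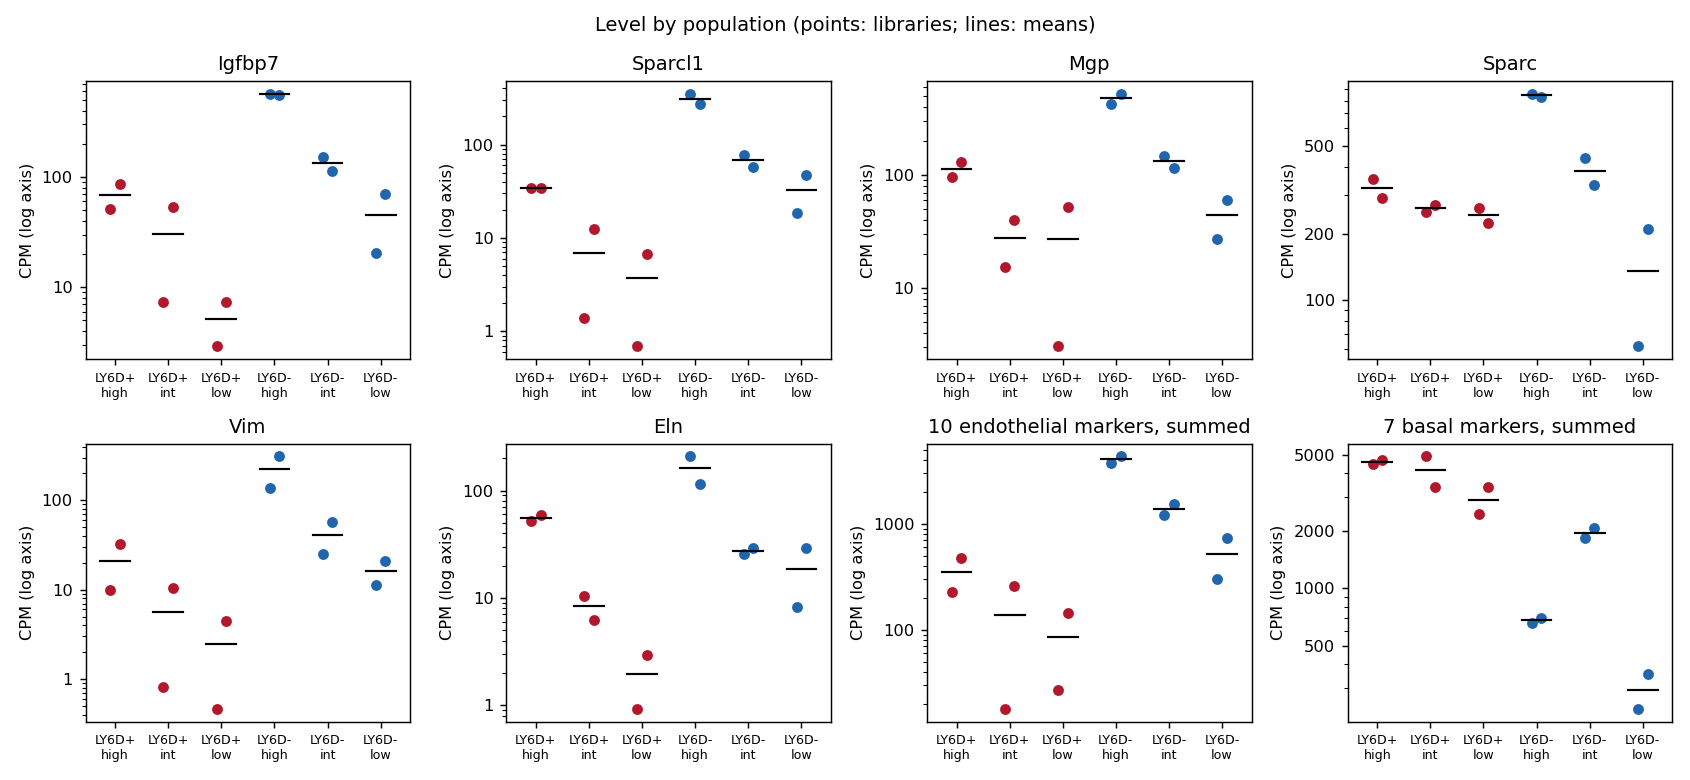
CPM (log axis) of Igfbp7, Sparcl1, Mgp, Sparc, Vim and Eln and of the summed endothelial and basal marker lists in the 6 populations, LY6D+ in red and LY6D- in blue; points are libraries and lines the means of 2. The 6 genes and the endothelial sum (3770 and 4340 CPM) are highest in LY6D- SCA1high, and the basal sum is highest in LY6D+ cells.

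The fibrillar collagen genes had high folds along SCA1 with wide errors. These collagens form the tensile fibres of connective tissue. All 4 estimates were positive, the median was 3.54 and 0 of 4 were called in edgeR. An unadjusted p below 0.05 was held by 3 of the 4, and by 1843 of all 15270 genes. DESeq2 called those 3, Col1a1, Col1a2 and Col3a1, and limma 0. Col1a1, for a chain of type I collagen, stood at 24.5 and 113 CPM in LY6D+ SCA1high and 49.6 and 49.6 in LY6D- SCA1high. It stood at 0.383 and 2.57 CPM in LY6D+ SCA1low and 3.66 and 7.79 in LY6D- SCA1low, so the SCA1high and SCA1low libraries did not overlap. Its log2 fold change was 4.32 ± 1.48 (edgeR adjusted p = 0.215). Col1a2, for the partner chain, reached 170 CPM and had a fold of 2.87 ± 0.99, which was called without LY6D+ SCA1low replicate 2 (4.47 ± 1.28) and without the receiving libraries (4 ± 1.16). Col3a1 reached 128 CPM, also in LY6D+ SCA1high replicate 2, and had a fold of 2.98 ± 0.99. All 3 had their highest value in LY6D+ SCA1high replicate 2. The other LY6D+ SCA1high library held 24.5, 56 and 37.6 CPM of Col1a1, Col1a2 and Col3a1. Col5a1 reached 10 CPM in 1 library alone, LY6D- SCA1high replicate 1 (26 CPM).

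Type IV collagen is the network of basement membranes, which epithelium, endothelium and muscle all lay down. Col4a1 and Col4a2, for its most common chains, were at 10 CPM or more in 12 and 11 libraries. Col4a1 was highest in LY6D- SCA1high (285 and 227 CPM) and lowest in LY6D- SCA1low replicate 1 (15.3 CPM). Col4a2 ran from 5.27 to 116 CPM. Neither was called in the main edgeR fit. Along SCA1 the estimates in LY6D- cells were 2.47 ± 0.93 and 3.24 ± 1.2, and in LY6D+ cells -0.18 ± 0.89 and -0.39 ± 1.1. Col4a1 in LY6D- cells was called without the doubted or the receiving libraries (4.09 in both fits). Their interaction estimates, -2.64 ± 1.27 and -3.64 ± 1.6, were not called (edgeR adjusted p = 0.65 for both). With Sparc they were the 3 of the 31 with an unadjusted interaction p below 0.05 in edgeR. Over all 15270 genes, 1160 had such a p. No member's interaction was called by DESeq2, limma or edgeR with all libraries in, and edgeR called 0.0393% of all genes (0.0131% higher, 0.0262% lower). The 2 genes lie head to head on chromosome 8, with 21 bases between their RefSeq start sites and 22 bases of annotated exon in common. Collagen VI, a beaded filament near cells, was represented by Col6a1 and Col6a2. Both were highest in LY6D- SCA1high, Col6a1 at 42.8 and 8.85 CPM and Col6a2 at 20.1 and 50.1 CPM, and were at or below 10.5 CPM in all other libraries.

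The surface receptors of fibroblasts and pericytes were at or below 3.1 CPM but for 3 values, 2 of Pdgfrb and 1 of Thy1. Pdgfra, the receptor gene most used to mark fibroblasts, had no counts in 8 libraries and at most 3.1 CPM. Pdgfrb, its pericyte counterpart, had no counts in 5 and at most 10.4 CPM. Thy1, a surface antigen of fibroblasts, stood at 31 CPM in LY6D- SCA1low replicate 2 and at 0.86 CPM or less elsewhere. Lum and Pdgfra were absent or scarce in libraries with high and with low Dcn: both had 0 counts in LY6D+ SCA1int replicate 2, with 817 CPM of Dcn, and in LY6D- SCA1low, with 203 and 159 CPM. Pdgfra was highest in LY6D+ SCA1high replicate 1, where Dcn stood at 641 CPM. A count of 0 allows up to 3 counts, which is 0.127 to 0.353 CPM in these libraries.

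Across all 6 populations, 9 of the 31 differed in edgeR's test of any difference, in which 1.54% of all genes were called. They were Dcn, Sparc, Sparcl1, Igfbp7, Mgp, Vim, Gsn, Tpm1 and Tpm2. Of the 10 genes called in an averaged comparison, Eln was the one not among them.

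Genes of the same systems outside the 34 were read from further lists. For LY6D, 3116 of all 15270 genes had an unadjusted p below 0.05 in edgeR and 379 were called. Along SCA1 these numbers were 1843 and 185. DESeq2 called more of all genes than edgeR in both comparisons, by the numbers given at the end. Of 20 basement membrane genes, 3 were higher in LY6D+ cells and 0 lower, with 5 at an unadjusted p below 0.05 in edgeR, while DESeq2 gave 4 higher and 1 lower and limma 2 and 0. The 3 were Col18a1, which encodes the collagen that yields endostatin (2.81 ± 0.41, edgeR adjusted p = 9.82e-05), Agrn for agrin (1.89 ± 0.41) and Col4a3 (8 ± 2.03). Col18a1 stood at 228 to 475 CPM in the LY6D+ libraries and 5.8 to 178 CPM in the LY6D- libraries. Of 24 other matrix genes, 8 had an unadjusted p below 0.05 for LY6D in edgeR, and DESeq2 called 7 higher and 2 lower and limma 1 and 0. In edgeR, Fmod was higher and Fbln5, for an elastic fibre fibulin, lower (-5.94 ± 1.51, edgeR adjusted p = 0.029). Of 21 matrix-processing genes, 8 had an unadjusted p below 0.05 for LY6D in edgeR, and DESeq2 called 2 higher and 5 lower and limma 0 and 0. In edgeR, the protease gene Adamts9 was lower in LY6D+ cells (-3.44 ± 0.83), and Adamts1 (2.22 ± 0.38) and Timp2 (1.25 ± 0.31), for a metalloproteinase inhibitor, were higher in SCA1high cells.

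Of 25 further fibroblast genes, 0 were higher in LY6D+ cells in edgeR, DESeq2 and limma. In edgeR 8 had an unadjusted p below 0.05, as did 3116 of all 15270 genes. In edgeR 3 were lower, Igfbp3 (-3.54 ± 0.62), Cd34 (-3.09 ± 0.63) and Igfbp4 (-1.93 ± 0.45). Igfbp3 and Igfbp4 encode binding proteins for insulin-like growth factors, and CD34 is a surface sialomucin of both endothelium and fibroblasts. Igfbp3 stood at 806 and 616 CPM in LY6D- SCA1high and 1.08 to 112 CPM in the LY6D+ libraries. Along SCA1, 3 of the 25 were higher, Cxcl12 (3.13 ± 0.58), Igfbp4 (2.55 ± 0.56) and Igfbp3 (3.21 ± 0.75), and 0 were lower. The list's medians were -1.53 for LY6D and 2.55 for SCA1, next to -0.83 and 2.49 for the 34-gene list. Of 20 smooth muscle and actin genes, 1 was higher in SCA1high cells, Cavin1 (1.89 ± 0.34), for a coat protein of caveolae.

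Among 15 tested genes of platelet-derived growth factor and transforming growth factor signalling, 2 were higher in LY6D+ cells and 0 lower in edgeR, with 3 at an unadjusted p below 0.05, against 3 and 1 in DESeq2 and 2 and 0 in limma. The edgeR calls were Ccn1, for a secreted matrix-associated protein (1.59 ± 0.26, edgeR adjusted p = 0.000369), and Pdgfa, the ligand of PDGFRA (2.2 ± 0.46, edgeR adjusted p = 0.00726). Pdgfa stood at 149 to 586 CPM in LY6D+ and 2.9 to 185 CPM in LY6D- libraries, in which its receptor gene was at or near 0. Among 15 matrix receptors, 3 were higher in LY6D+ cells and 0 lower in edgeR, against 3 and 1 in DESeq2 and 1 and 0 in limma. In edgeR 5 had an unadjusted p below 0.05. Over all 15270 genes 3116 had such a p for LY6D. The 3 edgeR calls were Sdc1 (2.95 ± 0.4, edgeR adjusted p = 2.55e-05) and Sdc4 (2.05 ± 0.47), for syndecans that bind matrix through heparan sulfate, and Itga6 (1.23 ± 0.32), for the laminin receptor chain. Itga6 is also 1 of the 7 basal markers. None of these signalling and receptor genes was called along SCA1. There 2 of the 15 signalling genes, 1 of the 15 receptors and 1843 of all genes had an unadjusted p below 0.05 in edgeR. For the 2 lists DESeq2 called 2 and 0 and limma 0 and 0.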

How the data were processed

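Reads from 3' tag libraries (Lexogen QuantSeq FWD, 10 to 20 ng RNA) were counted per gene by the authors. Per the submitters' processing notes, tools included cutadapt 1.9.1, STAR 2.5.1, featureCounts and edgeR, on mm10. The deposited count table holds raw counts of 48795 genes. The deposited table of normalised signal was used for limma alone, as log2(value + 1). Counts were fitted with edgeR 4.0.16 (quasi-likelihood, trimmed mean scaling, low-count filter, 1 mean per population, 6 residual degrees of freedom, common dispersion 1.65), and p-values were adjusted over all 15270 tested genes by Benjamini-Hochberg at 0.05. CPM is a gene's count in 1000000 counts of the scaled library. SE is the fold divided by the root of F. Alternatives, 21 in all, were RLE or library-size scaling, no filter, DESeq2 1.42.0, limma 3.58.1, a replicate block, each library left out, both doubted libraries left out and, chosen after seeing the data, subtraction of shared counts and both receiving libraries left out. The fit was also run on simulated counts, with an outcome that is not given here. That simulation had no shared counts between libraries, so it cannot show how the fit behaves with them. The members and lists were chosen with earlier results of these data known. Named genes are members called in a comparison, those with the largest uncalled folds, and genes called on the other lists. Gene coordinates are from GENCODE M21.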

Additional observations from a re-analysis of the deposited data

How the results depend on the processing

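The 34 genes had no reversal of direction among the calls reported. Counts of called members that moved by more than 1.5 times are given next, most with the range over leaving out a library, moved or not. For LY6D averaged over SCA1 levels, DESeq2 gave 13 against 6, and leaving out a library gave 5 to 7. At SCA1high DESeq2 gave 4 and the fit without the receiving libraries 3 against 0 (0 to 1 without a library), and at SCA1int both gave 1 against 0. At SCA1low, against 2, RLE scaling gave 0, DESeq2 8, limma 1, the fits without the doubted or the receiving libraries 1 each, subtraction 0, and leaving out a library 1 to 3. For SCA1 averaged over LY6D, against 6, RLE scaling gave 2, DESeq2 13, limma 3, subtraction 3, and leaving out a library 3 to 7. In LY6D+ cells, against 1, library-size scaling, no filter, the replicate block and the fits without the doubted or the receiving libraries gave 2 each, DESeq2 6, limma and subtraction 0, and leaving out a library 0 to 2. In LY6D- cells, against 2, library-size scaling, no filter, DESeq2 and the replicate block gave 4 each, the fits without the doubted or the receiving libraries 5 each, RLE scaling and limma 1, and leaving out a library 0 to 4. The interaction gave 0 to 1 without a library and 1 without the receiving libraries, against 0, and any difference gave 14 with DESeq2 and 4 with limma or subtraction, against 9. Over all genes DESeq2 called 2208 against 379 for LY6D and 1303 against 185 for SCA1. RLE scaling shifted the median fold of all genes by -0.12 for LY6D and -0.27 for SCA1, and library-size scaling shifted that for SCA1 by 0.48. All-gene calls for SCA1 split into 66 higher and 119 lower, 35 and 157 with RLE, and 184 and 77 by library size; for LY6D they split into 194 and 185, and 106 and 190 with RLE. Relative to the median of all genes, the Gsn fold was 2.22, 2.22 with RLE and 2.2 by library size. Column names give all replicate 1 libraries a shared prefix and all replicate 2 libraries another, and do not say what it stands for. No pairing by replicate number was seen: 2 of 15 correlations of deviations between populations exceeded 0.1 (-0.28 to 0.209). With 2 libraries a population, these correlations cannot exclude a pairing. With the replicate block, 7 members were called for LY6D, 7 for SCA1 and 9 for any difference. The 2 libraries of a population correlated at 0.66 to 0.71 across genes, and 2 of the 12 correlated best with the other library of their own population, which limits how far populations can be told apart. The causes of these changes were not tested.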
